A study of Mus musculus with 4 samples.

Results

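The members described here are transcription factor genes that direct effector programs in T and NK cells: the T-box factors Tbx21 and Eomes, the RUNX factors Runx1, Runx2 and Runx3 with their partner Cbfb, the repressor Prdm1 and the zinc finger factors Zeb1 and Zeb2. They were picked by gene symbol, from the probe sets (groups of probes that give 1 value) that carry a single symbol in the array's annotation, and 7 of the 9 had such a probe set, 1 each, among 22180 named genes. Runx2 had no probe set listed under its symbol, and Zeb2 was held only by 2 probe sets that also carry another gene's symbol, so neither is given a value. Of the 7, Eomes lay below the level needed for testing, which left 6 among 13602 genes tested.

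The RNA came from mouse invariant natural killer T (iNKT) cells, T cells with a semi-invariant T cell receptor that see lipids on CD1d. CD4-Vα14Tg mice, which carry a Vα14 receptor chain transgene with the CD4 promoter as its driver, were measured on 2 whole-transcript arrays, and wild-type (WT) mice on 2. The labels give no strain, age, sex, organ or sorting gate, name tissue as the source of the RNA although the sample is called iNKT cells, and do not say whether replicates were separate animals, so p-values measure the spread between these samples, which may be technical. The study's title concerns receptor density in iNKT precursors and the subsets they form.

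T-bet, the product of Tbx21, switches on interferon-γ and cytotoxic genes in Th1, NK and NKT1 cells, and Eomes is its closest relative in lymphocytes. RUNX proteins bind DNA together with CBFβ. Runx3 is the form associated with cytotoxic lineages and Runx1 with early thymocytes and naive T cells. Blimp-1, the product of Prdm1, represses memory genes in effector cells, and ZEB1 and ZEB2 are repressors that bind E-box sequences.

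The cells carried the RNA of T cells. Of 11 iNKT and T cell markers, 10 were measured and all 10 passed the filter. On the log2 scale they ran from 6.17 for Slamf1 to 12.45 for Cd3e. By limma's test 0 were called between genotypes, with 1 at an unadjusted p under 0.05. This was Slamf6, at 10.57 and 10.49 in CD4-Vα14Tg cells against 9.63 and 9.97 in WT cells (limma adjusted p = 0.0603). Without overlap of the groups, 1 of the 10 lay lower and 4 higher (23.4% and 15.7% of all genes tested). A missed threshold does not show equal levels. Array medians ran from 5.04 to 5.07, and the filter level, the 40th percentile of named probe sets, from 4.65 to 4.69.

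Among the members, Tbx21 and Runx3 were lower in CD4-Vα14Tg cells and no member passed the test in the other direction. Prdm1 was also lower on both arrays and Runx1 higher on both, without passing, while Cbfb and Zeb1 overlapped between genotypes. Thus 2 of 6 tested members were called, against 1.95% of all genes tested. The groups of arrays did not overlap for 4 of the 6, against 39.1% of all genes tested. Both CD4-Vα14Tg arrays lay below both WT arrays for 3 of the 6 (23.4% of all genes tested) and above them for 1 (15.7%). The members' median log2 difference was -0.36, and that of all genes tested was -0.022. In the fit without a filter, where Eomes joins the other 6, the members' median was -0.12. These counts describe members chosen with earlier results of these arrays known.

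**Figure D1:**
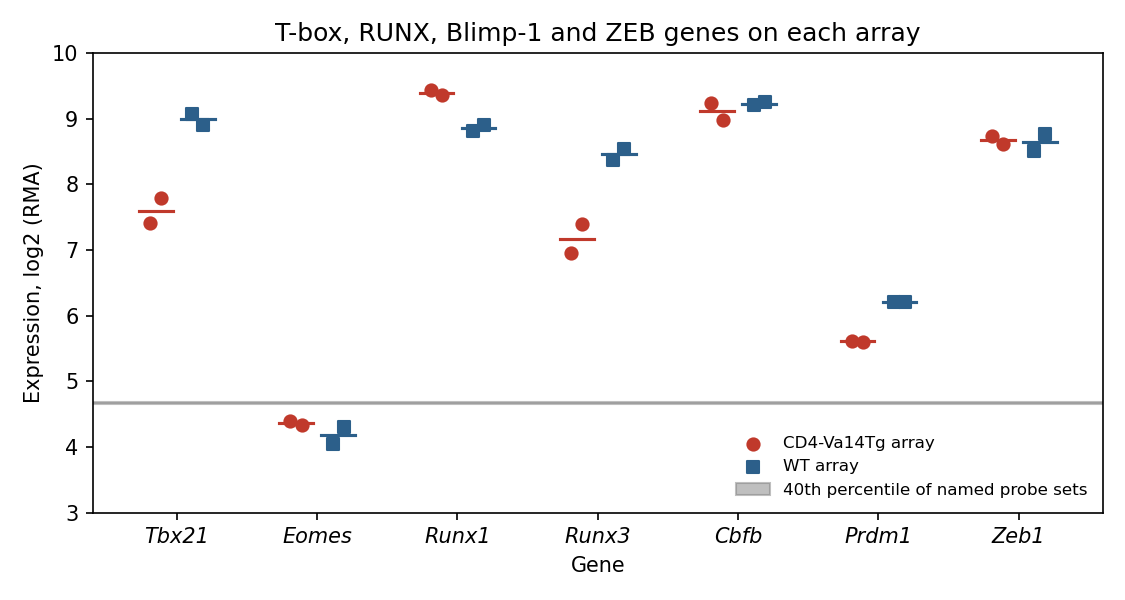
Expression of the 7 measured members on each array, in log2 RMA units. Circles are the 2 CD4-Vα14Tg arrays, squares the 2 WT arrays, short lines the group means, and the grey band spans the filter levels of the 4 arrays (4.65 to 4.69). Tbx21, Runx3 and Prdm1 sit lower on both CD4-Vα14Tg arrays, Runx1 sits higher on both, and Eomes lies under the band.

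Tbx21 read 7.41 and 7.79 on the CD4-Vα14Tg arrays and 9.07 and 8.91 on the WT arrays. The higher CD4-Vα14Tg array was still 1.12 below the lower WT array. The gene was 2.62-fold lower, with a 95% interval from 2.03-fold to 3.39-fold (means of 7.60 ± 0.27 and 8.99 ± 0.11 on the log2 scale, SD over n = 2 arrays per genotype, limma adjusted p = 0.00819). It held rank 72 among all genes tested by p. With 1 array left out at a time, the log2 difference ran from -1.58 to -1.20 and the limma adjusted p from 0.00849 to 0.0242.

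Eomes, the other T-box factor of NK and memory T cells, read 4.40 and 4.33 in CD4-Vα14Tg cells against 4.04 and 4.31 in WT cells. All 4 values lay below the filter level, near the array's background, where differences are compressed. In a fit without the filter its log2 difference was 0.19 (95% interval -0.12 to 0.50, limma adjusted p = 0.792). The planned within-array comparison of Tbx21 with Eomes is therefore not read. Of 15 other T-box genes, 14 were measured, 6 lay below the filter and 8 were tested, with 0 called by limma, 0 at an unadjusted p under 0.05 and a median log2 difference of 0.02. Tbx10, Tbx3 and Tbx18 had the largest moderated t among them, with limma adjusted p of 0.591, 0.605 and 0.658.

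The RUNX genes share a stretch of sequence near their starts, shown here because it holds the RUNX recognition letters in tandem in the family's own promoters. RUNX genes are known to be read from a distal and a proximal promoter. In RefSeq's promoter windows (build GRCm38.p6, 250 bases before to 50 after each start, 32851 windows), the longest run of bases common to the 3 genes was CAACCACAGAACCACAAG, of 18 bases. Searched on both strands, it was found in 4 windows, or 0.0122%. These were 1 window each of Runx1, Runx2 and Runx3, and that of Gm16225. Gm16225 is a lncRNA read from the opposite strand, and its window overlaps that of Runx3. The run was chosen as shared by the 3 RUNX genes, so its presence in them was fixed in advance. Runx1 and Runx3 have 2 windows each, and the run was in only 1 of them. In the lines below the 18 shared bases are in capitals.
Runx1 (chr16:92826025-92826054, minus strand): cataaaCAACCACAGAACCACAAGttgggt
Runx2 (chr17:44814583-44814612, minus strand): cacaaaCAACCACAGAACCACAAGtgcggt
Runx3 (chr4:135120503-135120532, plus strand): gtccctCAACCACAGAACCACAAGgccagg
The run starts at base 27 of the transcript in Runx1 and at base 22 in Runx2, counting the RefSeq start as 1, and at -136, before the start, in Runx3. The shorter RUNX motif ACCACA, with 2 copies in each such run, was found on either strand in windows of 18.9% of all genes in the table. Among the 8 members with a window in the table, it was present in 3, the RUNX genes. A match of letters is a description of the sequence and shows no binding.

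Runx3 read 6.95 and 7.39 in CD4-Vα14Tg cells and 8.37 and 8.54 in WT cells. The groups were 0.98 apart at their nearest arrays. It was 2.44-fold lower, with a 95% interval from 1.85-fold to 3.21-fold (means of 7.17 ± 0.31 and 8.46 ± 0.12, n = 2 arrays per genotype, limma adjusted p = 0.0130). Leaving out 1 array at a time gave log2 differences from -1.50 to -1.06. The limma adjusted p then ran from 0.0106 to 0.0499, the last without WT replicate 2, so that the call rests on the threshold there.

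Runx1 went the other way, at 9.43 and 9.36 in CD4-Vα14Tg cells against 8.81 and 8.90 in WT cells. The arrays did not overlap, but the log2 difference of 0.53 (95% interval 0.26 to 0.81) did not pass the test (limma adjusted p = 0.0849). Left-out arrays moved that difference between 0.49 and 0.58. Within each array, Runx3 minus Runx1 was -2.47 and -1.96 in CD4-Vα14Tg cells and -0.44 and -0.36 in WT cells. The gap between these paralogs, which share CBFβ as a partner, differed between genotypes by -1.82 on the log2 scale (-2.07 to -1.56 with 1 array left out). Runx3 lay lower and Runx1 higher without overlap, so the gap could not overlap either. It restates the differences of the 2 genes and adds no further result. The exact permutation test (two-sided) gave p = 0.333, the smallest that 2 arrays against 2 allow, so the difference of the gap could not pass a test in this design. The probe sets of 2 genes bind their targets differently, so only the change of this gap between genotypes is read, not its size.

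Cbfb, the shared partner that steadies RUNX proteins on DNA, read 9.24 and 8.98 in CD4-Vα14Tg cells and 9.21 and 9.25 in WT cells. The groups overlapped, and the log2 difference was -0.12 (95% interval -0.43 to 0.20, limma adjusted p = 0.867). Its sign turned without CD4-Vα14Tg replicate 2 (0.0125). RUNX cofactors gave 0 calls by limma among 11 tested genes, with 1 at an unadjusted p under 0.05 and a median log2 difference of -0.02. The most different were Cbfa2t3, an ETO family corepressor, at -0.37, the Groucho corepressor Tle4 at -0.27 and its relative Tle2 at 0.16, with limma adjusted p of 0.336, 0.457 and 0.836.

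Prdm1 was the member with the tightest replicates, at 5.62 and 5.60 in CD4-Vα14Tg cells and 6.20 and 6.20 in WT cells. It stood 0.58 apart between the nearest arrays of the groups. Its log2 difference of -0.59 (95% interval -0.86 to -0.33, 1.51-fold) missed the threshold at a limma adjusted p of 0.0547. It passed with a stricter filter, at the 60th percentile (limma adjusted p = 0.0382), and ran from 0.165 to 0.208 with 1 array left out. Of 14 other PRDM genes, 12 were measured and 11 tested, with 0 called by limma, 1 at an unadjusted p under 0.05 and a median log2 difference of -0.02. Prdm16, Prdm8 and Prdm15 were the most different, with limma adjusted p of 0.396, 0.802 and 0.913.

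Zeb1 read 8.74 and 8.62 in CD4-Vα14Tg cells and 8.51 and 8.77 in WT cells. The arrays overlapped, and the log2 difference was 0.05 (95% interval -0.28 to 0.37, limma adjusted p = 0.970). Leaving out replicate 1 of either genotype turned its sign (-0.016 without that of CD4-Vα14Tg, -0.087 without that of WT). The planned comparison of Zeb2 with Zeb1 was not made, as Zeb2 has no value here.

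**Figure D2:**
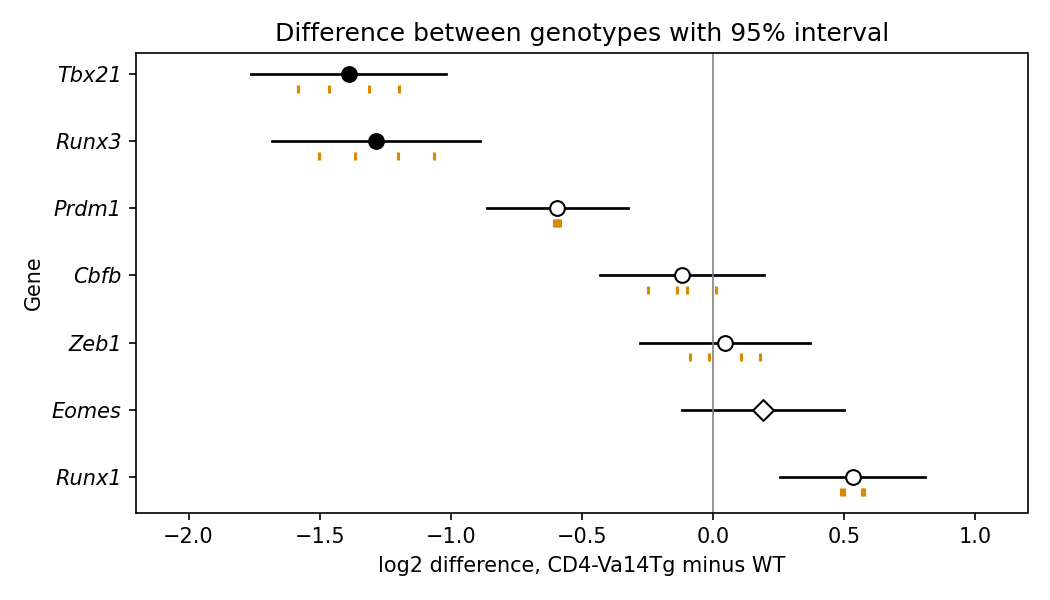
Log2 difference, CD4-Vα14Tg minus WT, of each measured member with its 95% interval from limma. Filled circles passed an adjusted p of 0.05, open circles did not, the diamond is Eomes from the fit without a filter, and the short orange ticks are the differences with 1 array left out. Tbx21 (-1.39) and Runx3 (-1.28) lie far to the left with all ticks beyond -1, while the intervals of Cbfb, Zeb1 and Eomes span 0.

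The E-box CAGGTG, the form bound by ZEB proteins, was searched on both strands of the same promoter windows. It was present in windows of 4 of the 8 members with an entry (Tbx21, Runx1, Runx3 and Prdm1) and of 22.6% of all genes in the table. None of these copies overlapped a RUNX motif. These 4 sites, the only ones found in the members' windows, are shown with the E-box in capitals.
Tbx21 (chr11:97115510-97115539, minus strand): gtttcagagtttCAGGTGgcaggttgactc
Runx1 (chr16:92826193-92826222, minus strand): cctgggggagggCAGGTGgagggcaggaag
Runx3 (chr4:135120400-135120429, plus strand): gacatcacagccCAGGTGacagtggcctag
Prdm1 (chr10:44458818-44458847, minus strand): ggctgggctggcCAGGTGcggccacgcccc
The E-box began at -196 from the RefSeq start in Tbx21, -136 in Runx1, -233 in Runx3 and -87 in Prdm1. The genes that hold it differed in direction, since Runx1 read higher and the other 3 lower. As above, a match of letters shows no binding, and a link to the differences between genotypes was not tested. The T-box motif AGGTGTGA, on either strand, was in the windows of 0 of the 8 members and of 1.48% of all genes in the table.

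The genes around these factors were followed by list, from receptors upstream to targets downstream. The lists share genes, so their counts are not independent, and 5 of 19 T-bet and Eomes target genes stand in another list. In all, 25 of 100 tested genes of these lists were called, 20 lower and 5 higher, against 1.34% of all genes tested called lower and 0.61% called higher. Of the 25, 15 were T-bet and Eomes target genes. The lists were chosen with earlier results of these arrays known, so the contrast with all genes is no independent support.

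**Figure D3:**
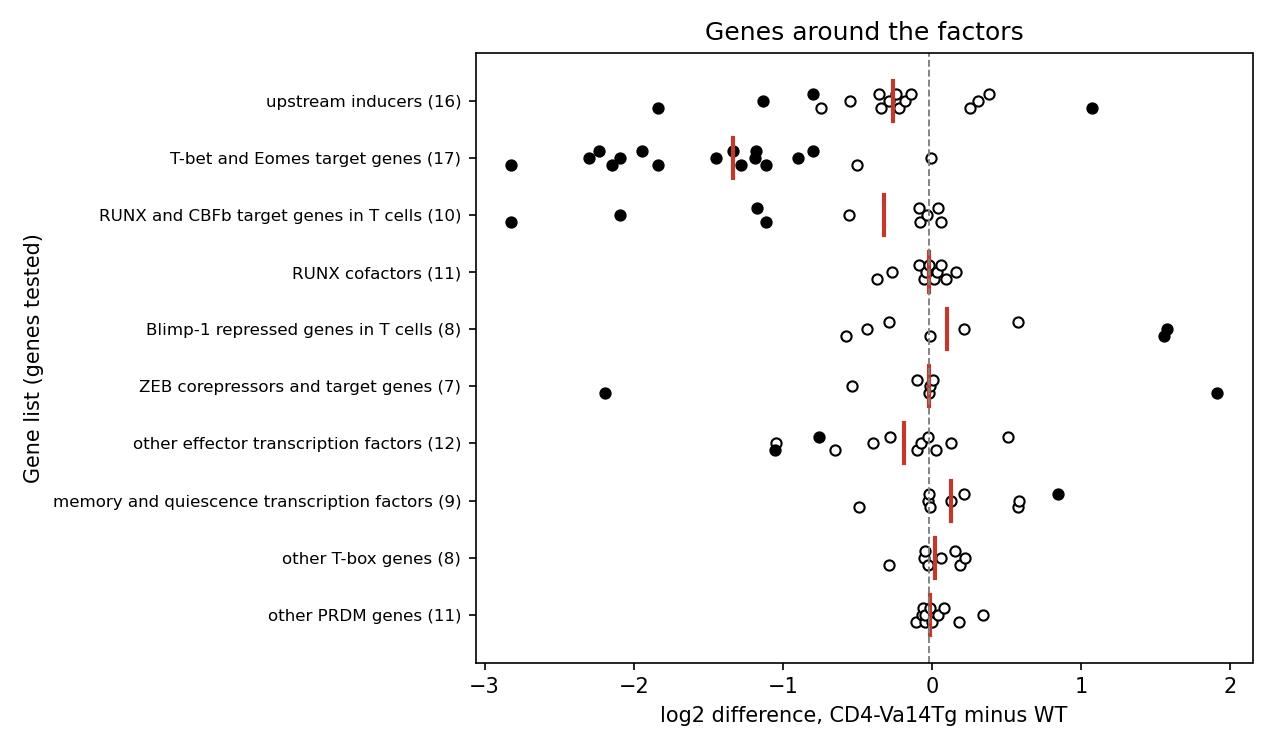
Log2 difference, CD4-Vα14Tg minus WT, of each tested gene in the pathway and family lists, with the number tested in parentheses. Filled points passed a limma adjusted p of 0.05, red bars are list medians and the dashed line is the median of all genes tested (-0.022). The T-bet and Eomes targets lie to the left with a median of -1.33, and the RUNX cofactors, T-box and PRDM relatives crowd around 0.

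Upstream of T-bet, 3 of 16 tested genes fell and 1 rose, with a median log2 difference of -0.26. Of these falls, Il12rb2 and Il2rb also stand on the list of T-bet and Eomes target genes and are counted there too. Il12rb2, the IL-12 receptor chain that signals through STAT4, read 7.33 and 7.70 in CD4-Vα14Tg cells against 9.16 and 9.55 in WT cells, a 3.58-fold fall (limma adjusted p = 0.00436). Its partner chain Il12rb1 read 7.87 and 8.15 against 8.19 and 8.18 (limma adjusted p = 0.736). Stat4 read 8.65 and 8.81 against 9.32 and 9.63, apart but short of the threshold (log2 difference -0.75, limma adjusted p = 0.0606).

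The interferon-γ receptor chains moved in opposite directions. Ifngr1, the ligand-binding chain, read 8.96 and 8.98 in CD4-Vα14Tg cells against 9.95 and 10.26 in WT cells, 2.20-fold lower (limma adjusted p = 0.0108). Ifngr2, the signalling chain, read 7.88 and 7.71 against 6.82 and 6.63, 2.10-fold higher (limma adjusted p = 0.0108). Both calls held with any 1 array left out (limma adjusted p up to 0.0424 and 0.0477). Il2rb, the IL-2 and IL-15 receptor chain, read 10.46 and 10.70 against 11.28 and 11.50 (limma adjusted p = 0.0427), and did not pass in any fit with an array left out (0.0591 to 0.179). Rbpj, the effector of Notch signals, and Stat5b had log2 differences of -0.55 and 0.38 without passing (limma adjusted p = 0.164 and 0.225).

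Of 17 tested T-bet and Eomes target genes, 15 fell and 0 rose, with a median log2 difference of -1.33. Many of them also mark NKT1 cells, and the list was written with results of these arrays known, so the count is no independent support for the fall of Tbx21. In bulk samples, fewer cells of a type and less RNA per cell cannot be told apart. Without 1 array the count was 10 to 14, the lowest without CD4-Vα14Tg replicate 1. Of the 15, Ncr1 passed the filter only through the WT arrays, and with the stricter filter 14 of 15 tested genes fell.

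Among secreted products, Ifng read 7.78 and 7.05 in CD4-Vα14Tg cells against 9.70 and 9.32 in WT cells (limma adjusted p = 0.00889). The chemokine Ccl5 read 8.59 and 8.21 against 10.67 and 10.42, 4.43-fold lower (limma adjusted p = 0.00179). The CD4-Vα14Tg arrays of both genes lay at least 1.54 below the WT arrays. Fasl, the death ligand, was 2.43-fold lower (limma adjusted p = 0.0215) and did not pass when either CD4-Vα14Tg array was dropped (0.0769 and 0.0610).

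The cytotoxic granule genes fell to different degrees. Gzmb, a granzyme, read 7.62 and 7.33 in CD4-Vα14Tg cells against 10.34 and 10.25 in WT cells, 7.08-fold lower (limma adjusted p = 4.09e-04). Prf1, perforin, read 6.20 and 6.29 against 7.16 and 7.56, 2.16-fold lower (limma adjusted p = 0.0174). Nkg7, a granule membrane protein, read 9.54 and 9.86 against 10.79 and 10.97, 2.27-fold lower (limma adjusted p = 0.0111). Prf1 missed the threshold when any array but WT replicate 1 was dropped (0.0503 to 0.0689).

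Among receptors on the list, Il18rap, a chain of the IL-18 receptor, read 8.06 and 8.23 in CD4-Vα14Tg cells against 9.35 and 9.61 in WT cells (2.52-fold lower, limma adjusted p = 0.00632). Il18r1, the other IL-18 receptor chain, read 9.54 and 10.07 against 10.12 and 10.49 and did not pass (limma adjusted p = 0.405). Klrc1 (NKG2A), Klrd1 (CD94), Slamf7, Klrb1c (NK1.1) and Cxcr3 were 4.94-fold, 4.69-fold, 3.85-fold, 2.72-fold and 2.28-fold lower. Dropping CD4-Vα14Tg replicate 1 or WT replicate 2 left Cxcr3 without a call (limma adjusted p = 0.0616 and 0.0577). S1pr5, an egress receptor of NK cells, read 5.24 and 5.25 against 5.30 and 5.21 (limma adjusted p = 0.997), and Klrg1 lay below the filter on all arrays, at 4.31 to 4.38.

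Of 5 NK cell markers, 2 fell, Klri2 and Ncr1, against 1.34% of all genes tested called lower. Of these 2, Ncr1 passed the filter only through the WT arrays, where it was higher. All 5 markers had a negative difference, as had 7616 of all 13602 genes tested. Fcgr3 and Tyrobp did not pass (limma adjusted p = 0.116 and 0.126), and S1pr5 overlapped between the genotypes, as given above. The summed signal of the 5 on the linear scale was 170.6 to 180.5 in CD4-Vα14Tg cells and 306.6 to 310.1 in WT cells. Klri2 read 4.81 and 4.81 in CD4-Vα14Tg cells, just above the filter level, against 6.71 and 6.62 in WT cells. It was 3.63-fold lower (limma adjusted p = 7.44e-04), a fold that may be compressed so near background. Ncr1, which is also on the target list, read 4.19 and 4.20 in CD4-Vα14Tg cells, below the filter level, against 5.05 and 5.14 in WT cells, so no fold is given. Its limma adjusted p was 0.0122, and it passed with only WT replicate 1 left out (0.0345, against 0.0524 to 0.0636 for the others). Eomes, which NK cells express, was below the filter in both genotypes. The part of NK cells in the fall of Tbx21 and Runx3 was not tested.

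Other cell types gave low signals. The CD8 genes Cd8a and Cd8b1 read 4.38 to 5.52, with summed linear signals of 60.4 to 69.2 and 63.1 to 70.3 in the 2 genotypes. Of 6 myeloid markers, 5 lay below the filter. The other, Itgam, read 5.42 and 5.44 in CD4-Vα14Tg cells against 4.84 and 4.69 in WT cells (limma adjusted p = 0.0438). Its WT values lay close to the filter level, and its call did not hold when any 1 array was left out. The summed signal of the 6 myeloid markers was 124.2 to 131.7 against 108.3 to 117.7. B cell, plasma cell and dendritic cell markers gave 0 calls by limma among 5 tested genes (2 at an unadjusted p under 0.05). Stromal and epithelial markers gave 0 among 4 (1 at such a p), and the brightest, Pecam1, which T cells also express, read 9.13 and 9.13 against 8.69 and 8.62.

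Of 10 tested RUNX and CBFβ target genes, 4 fell and 0 rose, with a median log2 difference of -0.32. That median depended on which genes and arrays entered, at -0.085 without a filter, -0.84 with the stricter one and -0.52 to -0.17 with 1 array left out (3 falls each). Of these Ifng, Prf1 and Gzmb also stand on the T-bet list, and the remaining gene was Itgae, the αE integrin CD103. Itgae read 9.09 and 9.52 in CD4-Vα14Tg cells against 10.53 and 10.42 in WT cells, 2.26-fold lower (limma adjusted p = 0.0169, and 0.0511 without WT replicate 1). Genes that RUNX proteins silence in T cells overlapped between the groups: Zbtb7b (ThPOK) at 6.92 and 7.17 against 6.97 and 6.99, and Cd4 at 9.52 and 9.72 against 9.57 and 9.84. Their 95% intervals reached 0.37 and 0.26 on the side of a rise. Il4, with a RUNX-bound silencer, had a log2 difference of -0.56 without passing (limma adjusted p = 0.234), and Cd8b1 had -0.09 (limma adjusted p = 0.929).

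Of 8 tested genes that Blimp-1 represses, 2 rose and 0 fell, and the median log2 difference was 0.10. The sign of the median turned without a filter (-0.012), without WT replicate 1 (-0.13) and without CD4-Vα14Tg replicate 2 (-0.034), while both rises kept their call. S1pr1, the egress receptor, read 10.01 and 9.51 in CD4-Vα14Tg cells against 8.28 and 8.10 in WT cells, 2.98-fold higher (limma adjusted p = 0.00833). Ccr7, the lymph node homing receptor, read 9.44 and 9.24 against 7.72 and 7.86, 2.94-fold higher (limma adjusted p = 0.00281). Id3, Myc and Ciita had log2 differences of 0.57, -0.44 and -0.29, and none passed (limma adjusted p = 0.0848, 0.441 and 0.485). Il2, a direct target of Blimp-1, lay below the filter on all arrays.

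Of 7 tested ZEB corepressor and target genes, 1 fell and 1 rose. Cdh1, which encodes E-cadherin, the classical gene silenced by ZEB proteins, read 6.41 and 6.60 in CD4-Vα14Tg cells against 8.68 and 8.72 in WT cells, 4.58-fold lower (limma adjusted p = 5.82e-04). With the mean of its probe sets in place of the brightest, its log2 difference was -1.30 instead of -2.196 (limma adjusted p = 0.00366). Itga4, the α4 integrin gene that ZEB1 can repress, read 10.29 and 10.33 against 8.16 and 8.64, 3.76-fold higher (limma adjusted p = 0.00326). Zeb1 overlapped between the groups and Zeb2 has no value here, and the part of ZEB proteins in these changes was not tested. Smad3 had a log2 difference of -0.54 (limma adjusted p = 0.0843), and the corepressors Ctbp1 and Ctbp2 had -0.10 and -0.02 (limma adjusted p = 0.878 and 0.994). Over the 7 genes the median was -0.02.

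Other effector transcription factors gave 2 falls and 0 rises among 12 tested, with a median log2 difference of -0.19. Maf, a regulator of IL-4, IL-10 and NKT17 genes, read 8.23 and 8.46 in CD4-Vα14Tg cells against 9.26 and 9.54 in WT cells (2.07-fold lower, limma adjusted p = 0.0173). It did not pass once CD4-Vα14Tg replicate 1 or WT replicate 2 was dropped (0.0712 and 0.0701). Irf8, an interferon regulatory factor, read 5.35 and 5.31 against 6.18 and 6.00 (limma adjusted p = 0.0310). That call was lost without any 1 array (0.0636 to 0.126) and with the mean of its probe sets in place of the brightest (0.254). Bhlhe40 read 9.98 and 9.34 against 10.91 and 10.51 and did not pass (limma adjusted p = 0.0836), nor did Ikzf3 (-0.65, limma adjusted p = 0.0791) or Rora (0.51, limma adjusted p = 0.187). Which genes of this list were called changed with the array dropped. In those fits the log2 difference ran from -1.37 to -0.73 for Bhlhe40, -1.19 to -0.91 for Maf and -0.855 to -0.666 for Irf8.

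Factors that hold T cells in a naive or memory state gave 1 rise and 0 falls among 9 tested, with a median log2 difference of 0.13 (-0.064 without WT replicate 1). Lef1, a Wnt pathway factor, read 10.75 and 10.72 in CD4-Vα14Tg cells against 9.83 and 9.96 in WT cells (limma adjusted p = 0.0173), a call that stood with WT replicate 2 dropped (0.0499) and with no other array dropped (0.0633 to 0.0733). Foxo1 read 9.26 and 9.42 against 8.79 and 8.72 and did not pass (limma adjusted p = 0.0721). Myb had -0.49 (limma adjusted p = 0.141).

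The genes whose values over the 4 arrays lay nearest to those of each called member were found as the root mean square distance between log2 profiles, each centred on its own mean. Nearest to Tbx21 were Srgap3 (0.083), Nrarp, a Notch pathway inhibitor (0.098), Itgae (0.11), Runx3 (0.126) and Myo1f, a class I myosin (0.131). Runx3 was thus in place 4 of 12136 tested genes with an established symbol. Nearest to Runx3 were Myo1f (0.021), Chad, a matrix protein (0.048), Nkg7 (0.066), Klrk1, the receptor NKG2D (0.067), and Crim1, a membrane protein that binds BMPs (0.086). Myo1f, at 7.97, 8.37, 9.34 and 9.50, kept the spacing of Runx3 on every array. Prdm1 stood at place 258 from Tbx21 (0.427) and Runx1 at place 11918 (0.979). The places follow in large part from the size and sign of the difference between genotypes. On the log2 scale it was -1.39 for Tbx21, -1.28 for Runx3, -0.59 for Prdm1 and 0.53 for Runx1. These distances are a description of 4 arrays and add no further support.

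**Figure D4:**
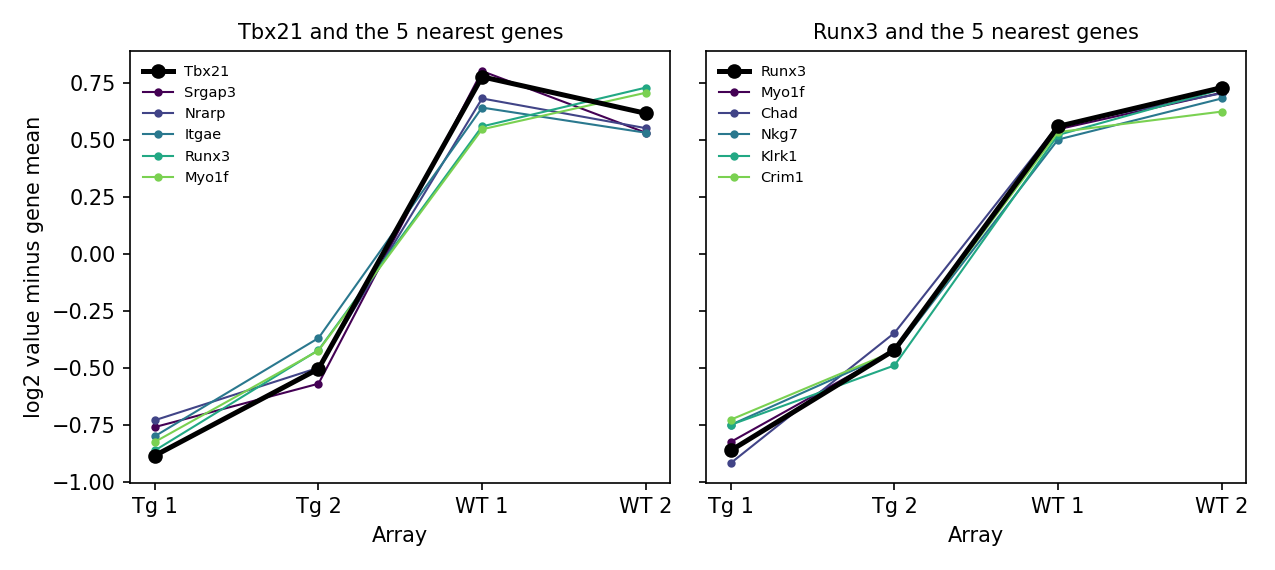
Log2 values minus each gene's mean on the 4 arrays, for Tbx21 (left) and Runx3 (right) in black and the 5 nearest genes in colour. Lines join the values of 1 gene and imply no order of arrays. In both panels every gene is lowest on CD4-Vα14Tg replicate 1, and the CD4-Vα14Tg arrays lie below the WT arrays.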

How the data were processed

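Expression was measured in 4 samples on Affymetrix whole-transcript arrays. The deposited log2 values, 1 per probe set and array (41345 probe sets), were made by the authors with RMA and Affymetrix Power Tools, per the submitters' processing notes. Versions and options are not stated there, and the scale was inferred from the range of the values. RMA equalizes the arrays' distributions, so a change of total RNA cannot be seen, and differences near background are compressed. The number of arrays limits precision.

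Probe sets with 1 gene symbol in the platform annotation (23521, 22180 genes) were used, and 21994 genes were matched to RefSeq by Entrez number. The brightest probe set stood for a gene. Genes at or above the 40th percentile of named probe sets on at least 2 arrays (13602) were tested with limma 3.58.1 in R 4.3.3 (lmFit, eBayes, CD4-Vα14Tg minus WT, two-sided, Benjamini-Hochberg, threshold 0.05). Software was Python 3.11.15 with matplotlib 3.10.9, numpy 2.4.6 and pandas 2.3.3. The fit was tested on simulated data.

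Within-array differences had exact permutation tests. The members and lists were chosen with earlier results of these data known. Named were all members, every called list gene, up to 3 further genes per list by moderated t and 5 nearest profiles per called member. Of marker lists, genes were named by level or call. Erythroid markers had no single-symbol probe set. The alternatives were other filters (none, 60th percentile), scalings, the mean of probe sets, trend and robust options, a replicate block and each array left out.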

Additional observations from a re-analysis of the deposited data

How the results depend on the processing

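The calls of Tbx21 and Runx3 held under every alternative run, with limma adjusted p up to 0.0242 and 0.0499. Among the tested members, only Cbfb and Zeb1 turned direction, and with 1 array left out their log2 differences ran from -0.25 to 0.0125 and from -0.087 to 0.18. All genes called numbered 265, and 166 to 221 with 1 array left out (169 when CD4-Vα14Tg replicate 1 was dropped, and 166 when either array numbered 2 was). The labels give both groups the replicate numbers 1 and 2 without saying what they share. Same-numbered arrays deviated together (r = 0.26 across genes, which are not independent replicates), but 2 pairs do not settle a pairing. With the replicate block 674 genes and 4 members were called, Prdm1 (limma adjusted p = 0.0232) and Runx1 (0.0394) besides Tbx21 and Runx3. The block also raised the called list genes from 25 to 33, with 4 in place of 2 among the other effector factors and 3 in place of 1 among the memory factors. Prdm1 also passed with the stricter filter. The medians of the RUNX cofactors and of the other T-box and PRDM genes, all near 0, turned sign in some fits. Of the 25 called list genes, 16 kept their call under all alternatives that tested them. In 100 comparisons with an array left out, 24 lost the call and 0 turned. In 174 others, 3 lost it: Il2rb without a filter (0.0576) and with repeated quantile normalization (0.0674), and Irf8 with averaged probe sets (0.254). The cause was not tested. The comparison of Zeb2 with Zeb1 was not run.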
